A study of Homo sapiens with 24 samples.

Results

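The FOS and JUN family is the set of genes FOS, FOSB, FOSL1, FOSL2, JUN, JUNB, and JUND, chosen by gene symbol from the rows of the gene count table. They are 7 of 26645 gene rows, and all 7 passed the filter on low counts that left 14741 genes to test. Proteins of the FOS and JUN families pair through leucine zippers to form the transcription factor AP-1, which binds the TPA response element TGACTCA and the closely related cAMP response element TGACGTCA. JUN proteins can pair with each other, whereas FOS proteins bind DNA only with a partner. FOS, FOSB, JUN, and JUNB are textbook immediate early genes, which growth factors and stress switch on without new protein synthesis, and whose unstable mRNAs normally vanish soon after. FOSL1 and FOSL2 are later family members without the transactivation domain of FOS, and JUND is known for steady expression.

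RNA was sequenced from MB468, the triple-negative breast cancer line MDA-MB-468, which depends on methionine (Met), and from MB468res-R8 (R8 from here on), a revertant clone able to grow on homocysteine (Hcy), the precursor of Met, in its place. R8 is 1 clone, so what belongs to the loss of Met dependence and what belongs to this clone cannot be told apart. Both lines were kept in DMEM with dialyzed serum, vitamin B12, glutamine, and cysteine. Cells at 0 h were untreated in Met+ medium with 100 µM Met, and the others were collected 0.5, 2, and 12 h after a switch to Met-Hcy+ medium with 370 µM DL-homocysteine and no Met. Each of the 8 groups had 3 libraries, and whether these came from separate cultures is not stated, so p-values measure the spread between these libraries. No library analysed here came from cells given fresh Met+ medium for the same times, so the switch of medium itself and the exchange of Met for Hcy cannot be told apart.

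Total counts per library ranged from 11745553 to 36496655. Levels are in CPM, counts scaled by the TMM effective library size. The epithelial marker EPCAM (286 to 437 CPM) and the basal keratin KRT5 (1539.8 to 2783 CPM) were expressed in all 24 libraries. Among the leukocyte genes, PTPRC and CD3E reached at most 0.199 and 0.0830 CPM, whereas CD68 had 2.85 to 10.0 CPM. The fibroblast collagen COL1A2 had at most 1 count, and COL1A1 had 14.6 to 73.2 CPM. Of the receptors absent in triple-negative cells, PGR had at most 2 counts, whereas ESR1 (4.15 to 22.6 CPM) and ERBB2 (38.3 to 97.3 CPM) were detected. Library 2 of MB468 at 2 h stood apart by 8251 counts of the noncoding RNA RN7SK, against at most 357 elsewhere; values without it are given where a call depends on it. In bulk RNA, fewer cells with a transcript and less transcript per cell cannot be told apart.

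The members lie apart in the genome except for a shared chromosome 19. In GENCODE on GRCh38, FOS spans chr14:75278826-75282230 (plus strand), FOSB chr19:45467995-45475179 (plus), FOSL1 chr11:65892049-65900573 (minus), FOSL2 chr2:28392448-28417317 (plus), JUN chr1:58776845-58784048 (minus), JUNB chr19:12791486-12793315 (plus), and JUND chr19:18279694-18281622 (minus). JUNB and JUND each consist of 1 exon block. The kit did not mark strand: JUNB shares 259 exonic bases with HOOK2 on the opposite strand, so reads there cannot be assigned, and FOSB lies inside ERCC1 on the opposite strand without shared exonic bases, as does FOSL2-AS1 across the start of FOSL2.

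Promoter sequence is shown for elements through which this family is known to be switched on: the CArG box, the core of the serum response element bound by SRF, and the cAMP response element and its variant TGACATCA in JUN, through which JUN is known to regulate its own gene. The 500 bases before the RefSeq start were read from GRCh38 for the 6 members with an entry (not FOSL1) and searched on both strands. Capitals mark the element, sequences run 5′ to 3′ on the gene's strand, and no element overlapped another. A CArG box was found in FOS and FOSB, against 2.43% of 35116 promoters of the same length.

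FOS chr14:75278499-75278538 (plus): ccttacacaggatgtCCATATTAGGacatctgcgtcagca

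FOSB chr19:45467707-45467746 (plus): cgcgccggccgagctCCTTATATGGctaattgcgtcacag

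TGACGTCA was found in FOSB and JUND (1.98% of promoters), at 325 to 318 and 200 to 193 bases before the start.

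FOSB chr19:45467656-45467693 (plus): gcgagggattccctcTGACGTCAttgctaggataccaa

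JUND chr19:18281800-18281837 (minus): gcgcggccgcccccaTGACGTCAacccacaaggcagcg

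TGACATCA was found in JUN (3.27% of promoters), at 67 to 60 bases before the start, and TGACTCA in none of the 6 (7.36%). TATAAA was found in FOS, FOSB, and JUNB (21.2%), and the FOSL2 window held none of the 5 elements. That window ended at chr2:28392857, before a RefSeq start inside the GENCODE gene, which begins at chr2:28392448. Most of the FOSL2 window thus lay within the annotated gene, and sequence before the GENCODE start was searched only in part.

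JUN chr1:58784048-58784147 (minus): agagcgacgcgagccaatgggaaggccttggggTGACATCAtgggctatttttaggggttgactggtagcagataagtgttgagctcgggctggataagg

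JUNB chr19:12791386-12791485 (plus), TATAAA in capitals: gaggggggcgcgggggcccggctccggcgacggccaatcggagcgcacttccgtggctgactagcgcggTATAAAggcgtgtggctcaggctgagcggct

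The members with a CArG box in this window, FOS and FOSB, also had the largest rises described next, which is a match of letters and not evidence of binding.

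The family was already expressed in Met+ medium, and 5 of 7 members were higher in R8 than in MB468 at 0 h, against 26.4% of all genes called higher and 53.5% called in either direction (edgeR quasi-likelihood test, Benjamini-Hochberg adjusted p under 0.05 over 14741 genes; this rule holds for every call). FOSL1, which encodes Fra-1 and is often high in invasive breast cancer cells, showed the widest gap. MB468 had 43.6, 42.9, and 43.9 CPM of FOSL1, and R8 had 85.8, 98.1, and 64.7 CPM. The lines did not overlap, and the log2 fold change was 0.94 ± 0.132 (SE, adjusted p = 9.45e-06). For JUNB, MB468 had 78.0, 69.8, and 75.2 CPM and R8 had 111, 119, and 125 CPM, again without overlap (log2 fold change 0.67, adjusted p = 9.46e-10). FOS was the least abundant member, with 8.48, 8.62, and 8.96 CPM in MB468 and 13.0, 13.2, and 11.8 CPM in R8 (0.56, adjusted p = 0.000489). JUN followed at 0.37 (adjusted p = 0.00274).

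FOSL2 passed the test at 0 h by a log2 fold change of 0.23 (adjusted p = 0.0330), although its libraries overlapped. This call was lost without MB468 replicate 1 (adjusted p = 0.0574) or 2 (0.141) and without R8 replicate 1 (0.158) or 2 (0.145), and in a fit to the compared groups alone (0.160). FOSB differed by 0.40 (adjusted p = 0.0847) and JUND by 0.30 (adjusted p = 0.0534), neither past the threshold. FOSB passed without R8 replicate 3 (0.58, adjusted p = 0.0137), and JUND without MB468 replicate 3 (0.39, adjusted p = 0.0243). Both also passed without the filter on low counts. Scaling on the spike-in RNAs lowered the median of all genes at 0 h to -0.31 on the log2 scale, and then only FOSL1 (0.61) and JUNB (0.36) of the 7 were called, while FOSL2 turned to -0.09. Relative to that median, FOSL2 stood at 0.22 and FOS at 0.55.

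**Figure D1:**
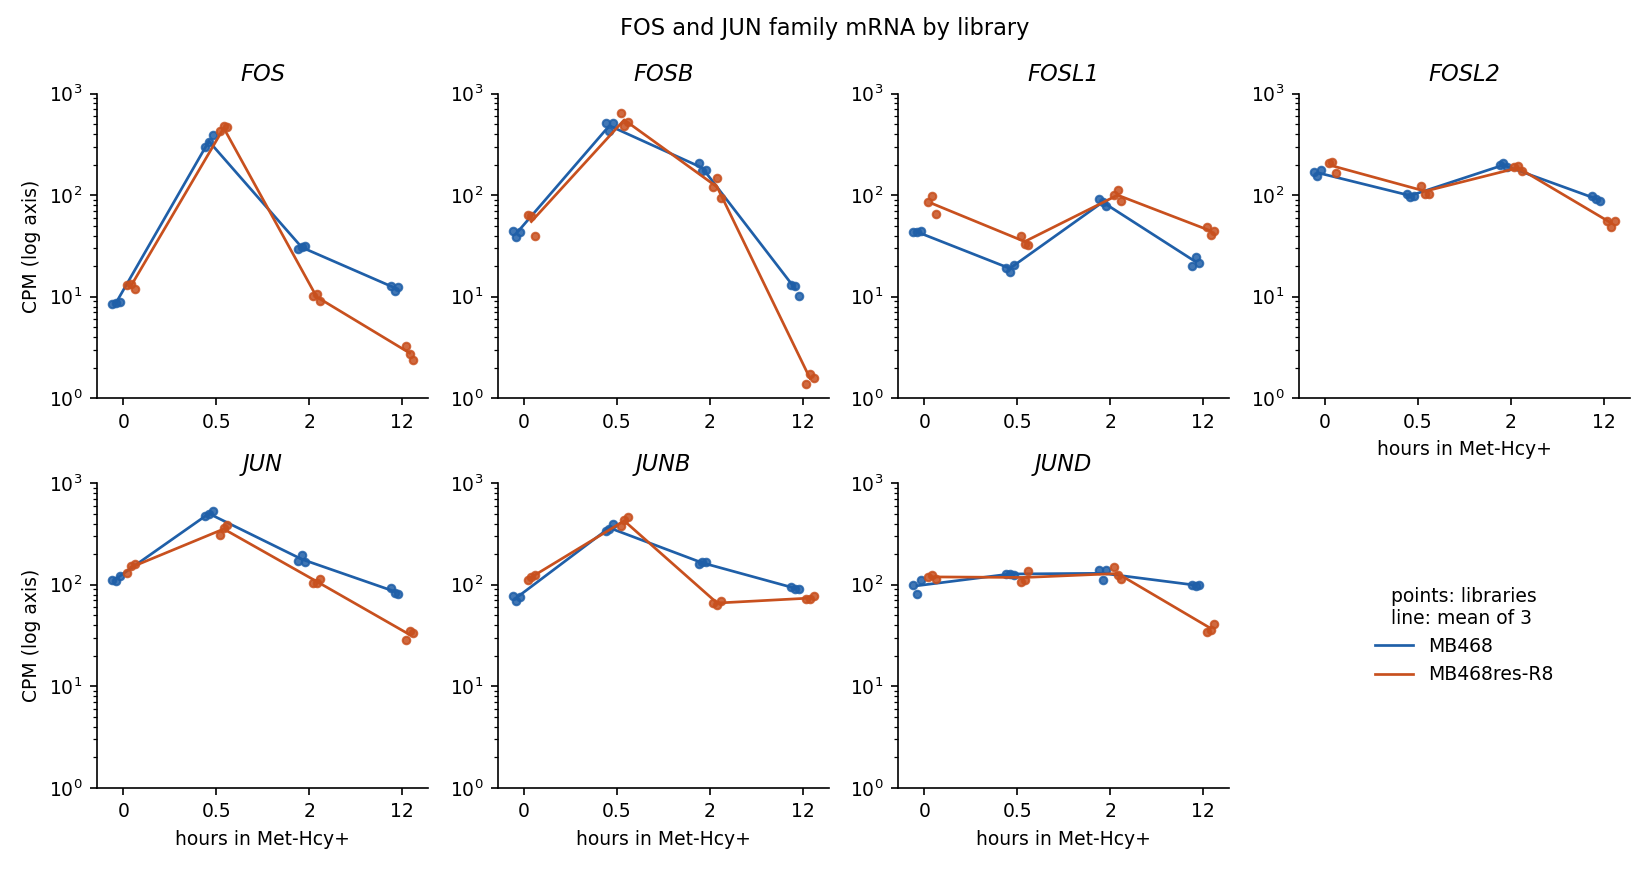
Level of each member in CPM (log axis) in every library by hours in Met-Hcy+ medium, for MB468 (blue) and MB468res-R8 (orange); lines join means of 3. FOS rose from 8.68 and 12.7 CPM at 0 h to 339 and 457 CPM at 0.5 h, while FOSL1 dipped at 0.5 h and peaked at 2 h.

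Within 0.5 h of the switch, FOS, FOSB, JUN, and JUNB rose in both lines, and FOSL1 and FOSL2 fell. In MB468 all 7 members were called, 5 higher and 2 lower, against 33.9% of all genes called in either direction (17.6% higher and 16.4% lower). In R8 it was 6 of 7, 4 higher and 2 lower, against 33.7% (17.4% higher and 16.3% lower). The comparisons with 0 h share the 0 h libraries of their line.

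FOS, the founding AP-1 partner, had the largest rise of the family. Its 0.5 h libraries held 294, 331, and 392 CPM in MB468 and 426, 480, and 466 CPM in R8. Every one of these lay more than an order of magnitude above every 0 h library, with a 39.0-fold rise in MB468 (log2 5.28 ± 0.0947 SE, adjusted p = 1.97e-23) and a 35.8-fold rise in R8 (5.16 ± 0.0902, adjusted p = 1.75e-23). Among the 14741 genes tested, FOS ranked 2 by log2 fold change in MB468 and 4 in R8. FOSB, its closest relative, went from 43.9, 38.5, and 43.8 to 510, 427, and 510 CPM in MB468, and from 63.1, 61.7, and 39.7 to 641, 482, and 528 CPM in R8. Neither line's groups overlapped, and FOSB rose 11.5-fold (rank 10) in MB468 and 9.93-fold (rank 12) in R8.

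The JUN partners rose less. JUN went from 112, 110, and 121 to 472, 498, and 533 CPM in MB468, a 4.39-fold rise (adjusted p = 2.08e-12), and from 131, 153, and 159 to 311, 358, and 391 CPM in R8, a 2.39-fold rise (adjusted p = 2.78e-09). JUNB, often described as a restraining partner of JUN, reached 341, 353, and 393 CPM in MB468 (4.87-fold) and 378, 429, and 468 CPM in R8 (3.59-fold). Every 0.5 h library of both genes lay above every 0 h library of its line. JUND went from 100, 81.1, and 112 to 129, 128, and 125 CPM in MB468, which passed the test by 0.40 on the log2 scale (adjusted p = 0.0213). That call was lost without replicate 2 at 0 h (adjusted p = 0.135), without replicate 1 (0.0768) or 2 (0.0651) at 0.5 h, and under spike-in scaling (0.17). In R8, JUND differed by -0.02 (95% interval -0.28 to 0.24).

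FOSL1 and FOSL2 moved the other way. FOSL1 fell to 19.1, 17.4, and 20.4 CPM in MB468 and to 39.4, 33.0, and 32.1 CPM in R8, below every 0 h library of the line, with log2 fold changes of -1.20 (adjusted p = 5.84e-06) and -1.25 (8.18e-07). FOSL2 fell to 102, 96.3, and 97.8 CPM in MB468 and to 124, 103, and 101 CPM in R8 (-0.75 and -0.83). These falls kept their call in all 14 alternative analyses, with FOSL1 between -1.41 and -1.16 in MB468.

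**Figure D2:**
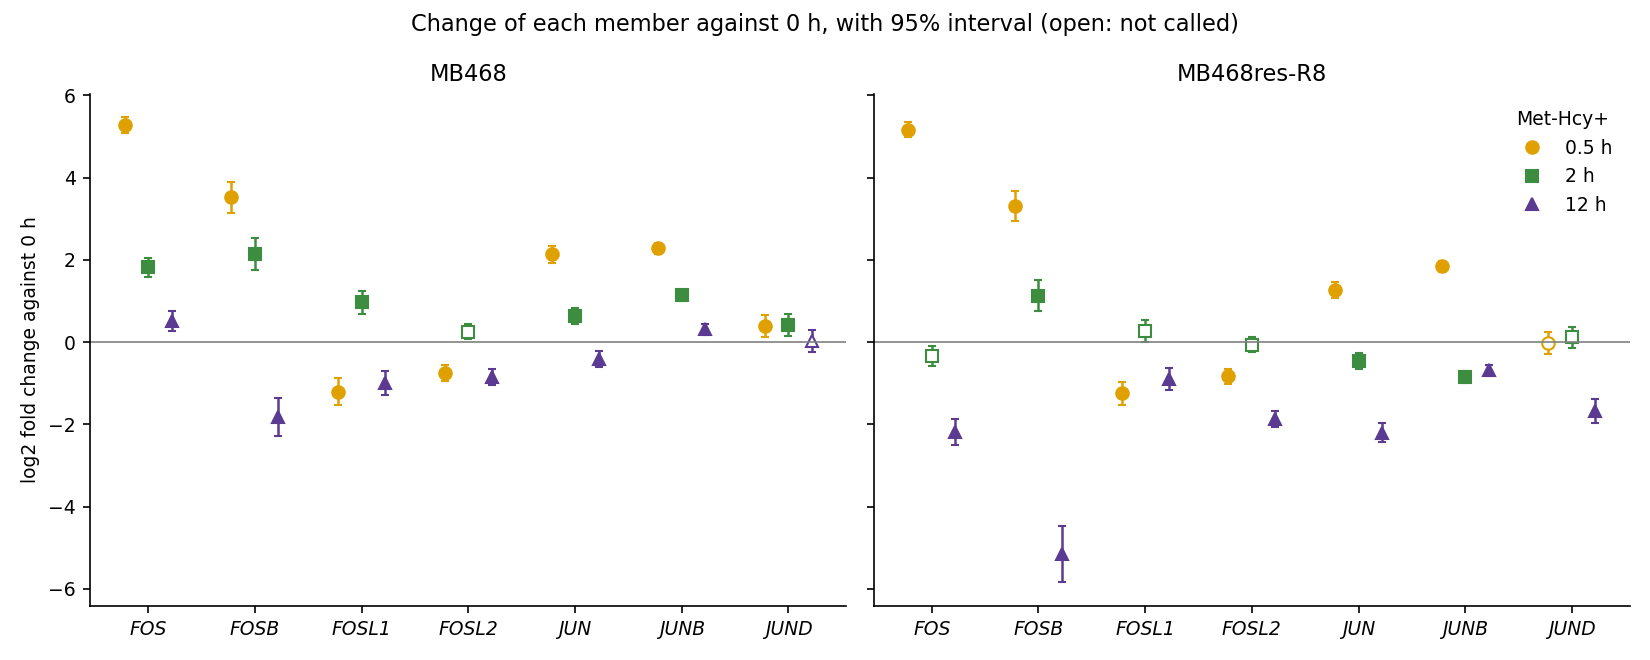
Log2 fold change against 0 h (vertical axis) of each member (horizontal axis) at 0.5, 2, and 12 h in MB468 (left) and MB468res-R8 (right), with 95% intervals; open symbols did not pass the test. At 12 h, all 7 members lay below 0 in MB468res-R8, down to -5.15 for FOSB.

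The lines parted at 2 h. In MB468, 6 of 7 members were above 0 h and none below, against 8.88% of all genes called higher, 7.47% lower, and 16.3% in either direction. In R8, 1 member was above and 2 were below, against 2.52% called higher, 1.85% lower, and 4.37% in either direction. FOS showed this most plainly. In MB468 it held 29.4, 30.8, and 31.6 CPM, above every 0 h library (3.53-fold, adjusted p = 7.25e-12). In R8 it held 10.2, 10.6, and 8.998 CPM, below its 0 h libraries without overlap, yet the log2 fold change of -0.34 did not pass the test (adjusted p = 0.142). In R8, 4 of 14 alternatives called FOS lower (adjusted p over all 14 from 0.00140 to 0.409). From 0.5 to 2 h FOS fell 45.2-fold in R8, the largest fall of all 14741 genes over that step, and 11.04-fold in MB468.

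JUNB went from 0.5 h to 160, 166, and 166 CPM in MB468, still 2.21-fold above 0 h (adjusted p = 1.11e-13). In R8 it went to 66.0, 62.6, and 69.1 CPM, below every 0 h library (log2 fold change -0.85, adjusted p = 5.32e-10). JUN likewise stayed higher in MB468, at 171, 195, and 168 CPM (0.64, adjusted p = 8.19e-05), and was lower than at 0 h in R8, at 105, 104, and 114 CPM (-0.46, adjusted p = 0.00612). JUN did not pass without R8 replicate 2 at 2 h (-0.44, adjusted p = 0.0502), and under spike-in scaling its MB468 rise was 0.22 (adjusted p = 0.117), with the median of all genes at -0.42.

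FOSB was the member that stayed raised in both lines, at 207, 171, and 178 CPM in MB468 (4.43-fold) and 120, 147, and 93.2 CPM in R8 (2.19-fold, adjusted p = 0.000558). All 2 h libraries lay above those at 0 h, but in a fit to the R8 libraries compared alone the adjusted p was 0.164. FOSL1 turned from its dip to its highest level, with 92.4, 85.9, and 77.3 CPM in MB468 (0.97 above 0 h, adjusted p = 4.27e-05) and 99.3, 113, and 87.9 CPM in R8 (0.27, adjusted p = 0.332). From 0.5 to 2 h FOSL1 rose by 2.18 in MB468 and 1.52 in R8 on the log2 scale, and FOSL2 by 0.995 and 0.76. Over that step 6 of 7 members were called in each line (2 higher and 4 lower), against 32.7% of genes in MB468 and 35.3% in R8.

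FOSL2 at 2 h held 195.9, 206, and 190.4 CPM in MB468, above its 0 h libraries (169, 154, and 176 CPM) without overlap, but the log2 fold change of 0.25 did not pass the test (adjusted p = 0.0625). Of 14 alternatives, 5 called it higher, and spike-in scaling put it at -0.17. In R8, FOSL2 differed by -0.06 (95% interval -0.25 to 0.12). JUND passed the test in MB468 by 0.42 (adjusted p = 0.0289) with overlapping libraries. It failed without replicate 1 (adjusted p = 0.0582) or 2 (0.157) at 0 h and without replicate 1 (0.107) or 3 (0.115) at 2 h, and in a fit to the compared groups alone (0.225), and spike-in scaling put it at -0.02. Without the library high in RN7SK, the MB468 count stayed at 6 of 7.

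Late levels lay below those at 0 h for every member in R8, although JUNB had its lowest level there at 2 h. At 12 h all 7 were below 0 h in R8, against 31.1% of all genes called lower, 30.2% higher, and 61.3% in either direction. In MB468, 4 were below, 2 were above, and JUND passed the test in neither direction, against 34.7% called lower, 36.1% higher, and 70.8% in either direction. FOSB was the extreme: R8 held 1.38, 1.75, and 1.58 CPM (35 to 38 counts per library), 35.5-fold below 0 h (log2 fold change -5.15 ± 0.326 SE, adjusted p = 2.49e-10, rank 4 from the lowest of 14741). MB468 held 13.1, 12.8, and 10.1 CPM, 3.52-fold below 0 h. The libraries of the lines did not overlap.

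FOS fell to 3.30, 2.70, and 2.37 CPM in R8, 4.54-fold below 0 h (adjusted p = 9.01e-12). In MB468 it stayed at 12.9, 11.5, and 12.3 CPM, 1.42-fold above 0 h (adjusted p = 0.000512), and under spike-in scaling this rise was 0.25 on the log2 scale (adjusted p = 0.130). JUN fell to 28.3, 34.8, and 33.7 CPM in R8 (4.59-fold below 0 h) and to 92.1, 83.6, and 81.2 CPM in MB468 (1.33-fold below). JUND, which had passed no earlier test against 0 h in R8, fell to 34.5, 36.1, and 41.1 CPM (3.20-fold, adjusted p = 6.59e-09), while MB468 held 100, 98.1, and 98.2 CPM, with a log2 fold change of 0.03 (95% interval -0.23 to 0.29).

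FOSL2 fell 3.64-fold in R8, to 55.5, 48.7, and 55.6 CPM, and 1.80-fold in MB468, to 97.8, 90.99, and 87.4 CPM. FOSL1 fell alike in both, to 48.3, 40.4, and 44.7 CPM in R8 (-0.90) and 20.0, 24.8, and 21.4 CPM in MB468 (-0.99). JUNB kept the most of its 0 h level among the members in R8, with 72.6, 71.6, and 77.2 CPM (1.601-fold below). In MB468 it held 95.5, 90.99, and 89.9 CPM (0.31 above 0 h, adjusted p = 0.000114), and spike-in scaling reduced this to 0.07 (adjusted p = 0.651).

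From 2 to 12 h, all 7 members fell in MB468, against 35.1% of genes called lower and 69.7% in either direction, with FOSB down 15.6-fold and JUND down 1.32-fold. Under spike-in scaling JUND did not pass (-0.20, adjusted p = 0.188). In R8, 6 fell and 1 rose, against 31.8% called lower, 30.7% higher, and 62.5% in either direction, with FOSB down 77.9-fold. The riser was JUNB, by 0.17 (adjusted p = 0.0318). This call was lost without replicate 1 (adjusted p = 0.0648) or 2 (0.157) at 2 h, without replicate 3 at 12 h (0.0838), under spike-in scaling (0.135), and with the spike-in factor as a covariate (0.111).

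At 12 h the lines then differed in all 7 members, against 73.1% of all genes (33.9% higher and 39.2% lower). FOSL1 was 2.04-fold higher in R8 than in MB468 (adjusted p = 3.50e-06), and the other 6 were lower. Their log2 fold changes were -2.93 for FOSB, -2.13 for FOS, -1.42 for JUN, -1.41 for JUND, -0.79 for FOSL2, and -0.32 for JUNB.

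The difference between the lines was tested as the response of R8 minus that of MB468. At 0.5 h, 2 of 7 members differed, against 2.9% of all genes (1.2% higher and 1.7% lower): JUN by -0.88 (adjusted p = 0.000462) and JUNB by -0.44 (adjusted p = 0.00290), both a smaller rise in R8. For FOS the difference was -0.12 (95% interval -0.41 to 0.17) and for FOSB -0.21 (-0.73 to 0.31). Under spike-in scaling, which moved the median of all genes to 0.26, none of the 7 passed (JUN -0.63, adjusted p = 0.0695). In a fit to the compared libraries alone, JUNB did not (adjusted p = 0.132).

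At 2 h, 5 of 7 differed, all lower in R8, against 2.88% of genes called lower and 5.07% in either direction. The differences were -2.16 for FOS (adjusted p = 1.37e-09), -1.99 for JUNB (3.88e-15), -1.10 for JUN (3.03e-05), -1.02 for FOSB (0.0237), and -0.70 for FOSL1 (0.0327). FOS, JUNB, and JUN kept their calls in all 20 alternatives. FOSB lost its call in 6 of 20: without MB468 replicate 2 at 0 h (adjusted p = 0.0760), R8 replicate 1 (0.0846) or 2 (0.0668) at 0 h, or MB468 replicate 1 at 2 h (0.0555), in the fit to fewer libraries (0.129), and under spike-in scaling (0.0590). FOSL1 lost its call in 11 of 20, among them without each of the 3 MB468 libraries at 0 h, replicates 1 and 2 of R8 at 0 h, replicates 1 and 2 of MB468 at 2 h, and replicates 1 and 3 of R8 at 2 h (adjusted p from 0.0613 to 0.0809). Without the library high in RN7SK it was 0.0637. FOSL2 differed by -0.31 (adjusted p = 0.190), and by -0.41 (0.0124) without R8 replicate 3 at 0 h.

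At 12 h, 6 of 7 differed, all lower in R8, against 30.3% of genes called lower and 56.5% in either direction. They were FOSB (-3.34), FOS (-2.69), JUN (-1.79), JUND (-1.71), FOSL2 (-1.02), and JUNB (-0.99), and each kept its call in all 20 alternatives. FOSL1 was the exception, with a difference of 0.09 (95% interval -0.31 to 0.50).

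**Figure D3:**
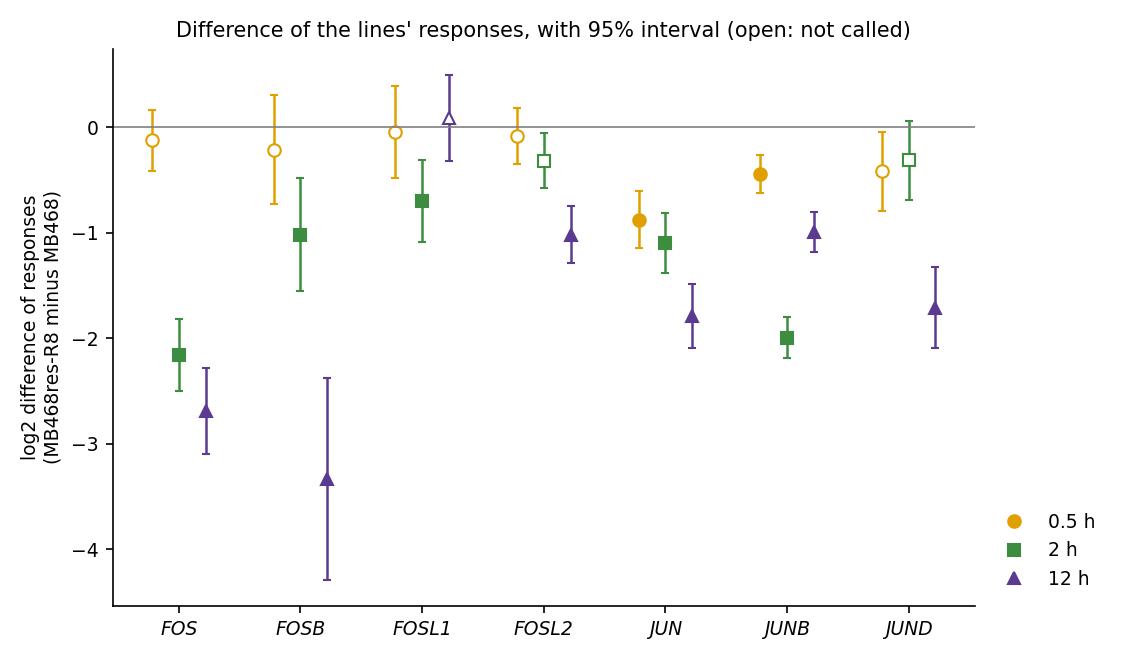
Response of MB468res-R8 minus response of MB468 on the log2 scale (vertical axis) for each member (horizontal axis) at 0.5, 2, and 12 h, with 95% intervals; open symbols did not pass the test. FOS and FOSB lay near 0 at 0.5 h and at -2.69 and -3.34 at 12 h, and FOSL1 lay at 0.09 at 12 h.

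Over the 8 groups, FOS was highest in R8 at 0.5 h (457 ± 28.0 CPM, SD, n = 3), then in MB468 at 0.5 h (339 ± 49.3), and lowest in R8 at 12 h (2.79 ± 0.474), and its only neighbours with overlapping libraries were R8 at 0 h and MB468 at 12 h. For FOSB, R8 and MB468 at 0.5 h overlapped, as did both lines at 0 h. JUN was ordered differently at the top, with MB468 at 0.5 h (501 ± 30.5) above R8 (353 ± 39.99) without overlap. FOSL1 was highest at 2 h, where R8 (99.95 ± 12.3), MB468 (85.2 ± 7.604), and R8 at 0 h (82.9 ± 16.9) overlapped, and lowest in MB468 at 0.5 h (19.0 ± 1.47). The JUND groups from MB468 at 2 h (129 ± 16.5) down to R8 at 0.5 h (118 ± 17.4) each overlapped the next, and only R8 at 12 h (37.2 ± 3.47) stood clear at the bottom.

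Levels of different genes were compared per length, as RPKM, which divides CPM by the length of the GENCODE exon union in kilobases. At 0 h JUN genes made up most of the family: JUND held 28.1% and JUNB 22.7% of the summed RPKM of the 7 in MB468, and FOS 1.53%. The sum went from 179 ± 13.6 at 0 h to 619 ± 40.5, 322 ± 7.24, and 156 ± 4.26 RPKM at 0.5, 2, and 12 h in MB468 (SD, n = 3). In R8 it went from 252 ± 15.3 to 667 ± 37.0, 236 ± 15.8, and 101 ± 4.24 RPKM. The mean sum of R8 was thus above that of MB468 at 0 h and below it at 12 h.

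FOS and FOSB mRNA took over the FOS side at 0.5 h. FOS and FOSB together held 18.2 ± 0.297% of the RPKM of the 4 FOS genes in MB468 at 0 h and 89.0 ± 0.745% at 0.5 h. In R8 the share went from 16.3 ± 0.793% to 87.8 ± 0.965%. At 2 h it was 37.2 ± 1.63% in MB468 and 23.7 ± 1.93% in R8, and at 12 h 19.6 ± 1.15% and 3.61 ± 0.408%. At 12 h FOSL1 alone made up 73.3 ± 0.572% of FOS-side RPKM in R8 and 38.2 ± 3.45% in MB468, where FOSL2 held 42.1 ± 2.30%. On the JUN side, JUNB held 58.9 ± 1.55% at 12 h in R8 and 40.2 ± 0.0710% in MB468. Over all 7 members at 12 h, JUNB and FOSL1 (23.4%) held the largest shares in R8, and JUND (32.9%) and JUNB (32.3%) in MB468.

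**Figure D4:**
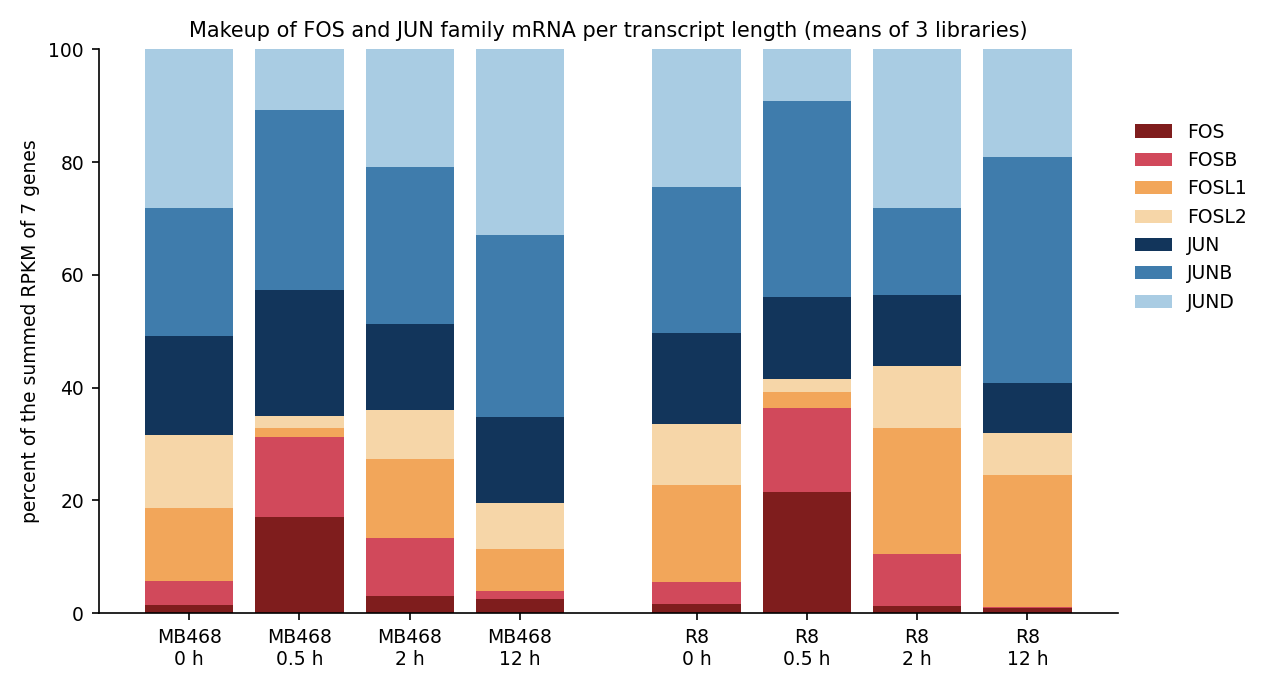
Share of each member in the summed RPKM of the 7 genes (vertical axis, percent, means of 3 libraries) in the 8 groups by line and hours in Met-Hcy+. FOS took 17.1% in MB468 and 21.5% in MB468res-R8 at 0.5 h, and FOSL1 took 23.4% in MB468res-R8 at 12 h against 7.51% in MB468.

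Across the 24 libraries, log2 CPM of FOS went with JUNB (Pearson r = 0.96) and JUN (0.93), and ran against FOSL1 (-0.43). These are descriptions over libraries that share the 8 groups. Of all other genes, DUSP1, a phosphatase that switches off MAP kinases, was most like FOS (r = 0.996), followed by EGR2 (0.962) and ZFP36 (0.951), an mRNA-destabilizing protein. FOSB was most like NBR1 (0.971), NR4A1 (0.968), and ATF3 (0.966), JUN like PPP1R3C (0.959), GLTP (0.951), and NBR1 (0.946), and JUNB like the amino acid transporter SLC38A2 (0.964), ZFP36 (0.960), and DUSP1 (0.959). The correlation does not measure the size of a change. Over the 24 libraries NBR1 spanned 70.6 to 120 CPM and GLTP 75.1 to 145 CPM, against 3.54 to 762 CPM for NR4A1. The dipping members had other neighbours: PXDN (0.975), MAP3K14 (0.957), and VDR (0.946) for FOSL1, and HIVEP2 (0.971), SH3PXD2B (0.961), and NPC1 (0.957) for FOSL2. JUND was most like ERBB4 (0.943), PPP2R5B (0.939), and PBXIP1 (0.939).

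Of a list of 32 other immediate early genes, 31 were tested. In MB468, 28 were higher at 0.5 h and 28 at 2 h, with none lower, and medians of 1.43 and 1.36 on the log2 scale against 0.01 for all genes at both times. In R8, 27 were higher and 1 lower at 0.5 h (median 1.42), 12 higher and 5 lower at 2 h (0.25), and 3 higher and 25 lower at 12 h (-1.25, all genes -0.02). At 12 h in MB468, 14 were higher and 9 lower (median 0.02). The shares of all genes called in either direction were 33.9%, 16.3%, and 70.8% in MB468 at 0.5, 2, and 12 h. They were 33.7%, 4.37%, and 61.3% in R8. The 12 h count in MB468 thus lay near the share of all genes. EGR1, a zinc finger factor induced through SRF, went from 41.4 ± 2.97 to 1305 ± 106, 563 ± 14.8, and 185 ± 11.3 CPM in MB468 and from 43.0 ± 4.22 to 832 ± 54.3, 28.7 ± 2.22, and 9.61 ± 2.66 CPM in R8 (SD, n = 3). The difference of responses was called lower in R8 for 23 of the 31 at 2 h and 25 at 12 h. Among all genes, 2.88% and 30.3% were called lower in these comparisons. EGR1 stood at -4.32 at 2 h and EGR3 at -4.71 at 12 h. NR4A3 did not follow at 0.5 h, with -0.90 in MB468 (adjusted p = 0.136) and a called fall of -2.12 in R8.

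Other leucine zipper proteins that can pair with the family or bind related sites were tested for 15 of 18 genes. In MB468, 8 were higher and 4 lower at 0.5 h, 10 higher and 1 lower at 2 h, and 9 higher and 2 lower at 12 h. In R8 the counts were 9 and 4, 4 and 1, and 4 and 9. Of all genes, 33.9%, 16.3%, and 70.8% were called at these times in MB468, and 33.7%, 4.37%, and 61.3% in R8, so the 11 of 15 called at 12 h in MB468 lay near the share of all genes. ATF3, a stress-induced partner of JUN, rose by 2.59 in MB468 and 2.02 in R8 at 0.5 h. DDIT3, which encodes CHOP and is a target of ATF4, rose from 3.56 ± 0.472 to 18.9 ± 0.808 CPM at 12 h in MB468, and R8 held 4.45 ± 0.445 and 5.22 ± 0.741 CPM. The responses at 12 h differed for 11 of the 15, all lower in R8, among them MAFF (-2.26) and DDIT3 (-2.17). Among all genes 56.5% differed, and 30.3% were lower in R8.

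Genes upstream of the family and regulators of JUN turnover were listed as well, and at 0.5 h 33.9% of all genes were called in MB468 and 33.7% in R8. Of 21 MAP kinase pathway genes, 2 were higher and 2 lower at 0.5 h in MB468, a smaller share than among all genes, and 4 and 3 in R8, a share near it, with MAP2K3, a kinase above p38, at -1.37 and -1.31, both called lower. SRF itself, whose protein binds the CArG box, fell by 0.86 in MB468 and by 0.55 in R8 at 0.5 h, and was lower in R8 than in MB468 at 0 h (-0.94). Of the 6 genes for SRF and its partners, 2 were higher and 2 lower in MB468 and 2 and 3 in R8 at 0.5 h. Of 11 regulators of JUN protein turnover, 3 were higher and 3 lower in MB468 and 3 and 1 in R8. The pseudokinase TRIB1, which recruits the COP1 ubiquitin ligase, rose by 2.65 and 2.32, and its responses at 2 h differed by -1.34. These counts concern mRNA, and protein or phosphorylation was not measured here.

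Of 26 textbook AP-1 target genes, 19 were tested, and the 7 with too few counts were MMP1, MMP3, MMP9, MMP10, MMP12, MMP13, and SPRR1A. In MB468, 3 were higher and 7 lower at 0.5 h (median -0.17), 9 higher and 1 lower at 2 h (0.33), and 4 higher and 9 lower at 12 h (-0.14). In R8 the counts were 3 and 10 (-0.14), 3 and 2 (0.09), and 4 and 11 (-0.47), against medians of all genes between -0.02 and 0.01. At these times 33.9%, 16.3%, and 70.8% of all genes were called in either direction in MB468. In R8 the shares were 33.7%, 4.37%, and 61.3%. The 12 h count of targets in MB468 thus lay near the share of all genes. IL6, an inflammatory cytokine, rose from 2.52 ± 0.673 to 9.27 ± 1.26 and 12.9 ± 1.22 CPM at 0.5 and 2 h in MB468. In R8 it rose from 9.86 ± 1.41 to 30.3 ± 7.59 CPM at 0.5 h and held 11.4 ± 0.946 CPM at 2 h. HBEGF, a ligand of EGFR, went from 28.6 ± 1.96 to 72.2 ± 5.81 CPM at 2 h in MB468, and R8 held 43.1 ± 1.57, 85.5 ± 10.4, and 44.1 ± 2.13 CPM at 0, 0.5, and 2 h. LIF fell from 73.7 ± 7.96 to 2.30 ± 0.671 CPM at 12 h in R8 and from 174 ± 0.246 to 37.6 ± 2.67 CPM in MB468. At 2 h the responses differed for 4 of the 19, all lower in R8, with IL6 at -2.12 and HBEGF at -1.29. Among all genes 5.07% differed, and 2.88% were lower in R8. Involucrin (IVL), a squamous differentiation gene, was 4.62 higher in R8 than in MB468 at 0 h, with 14.5 ± 0.916 against 0.594 ± 0.129 CPM.

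**Figure D5:**
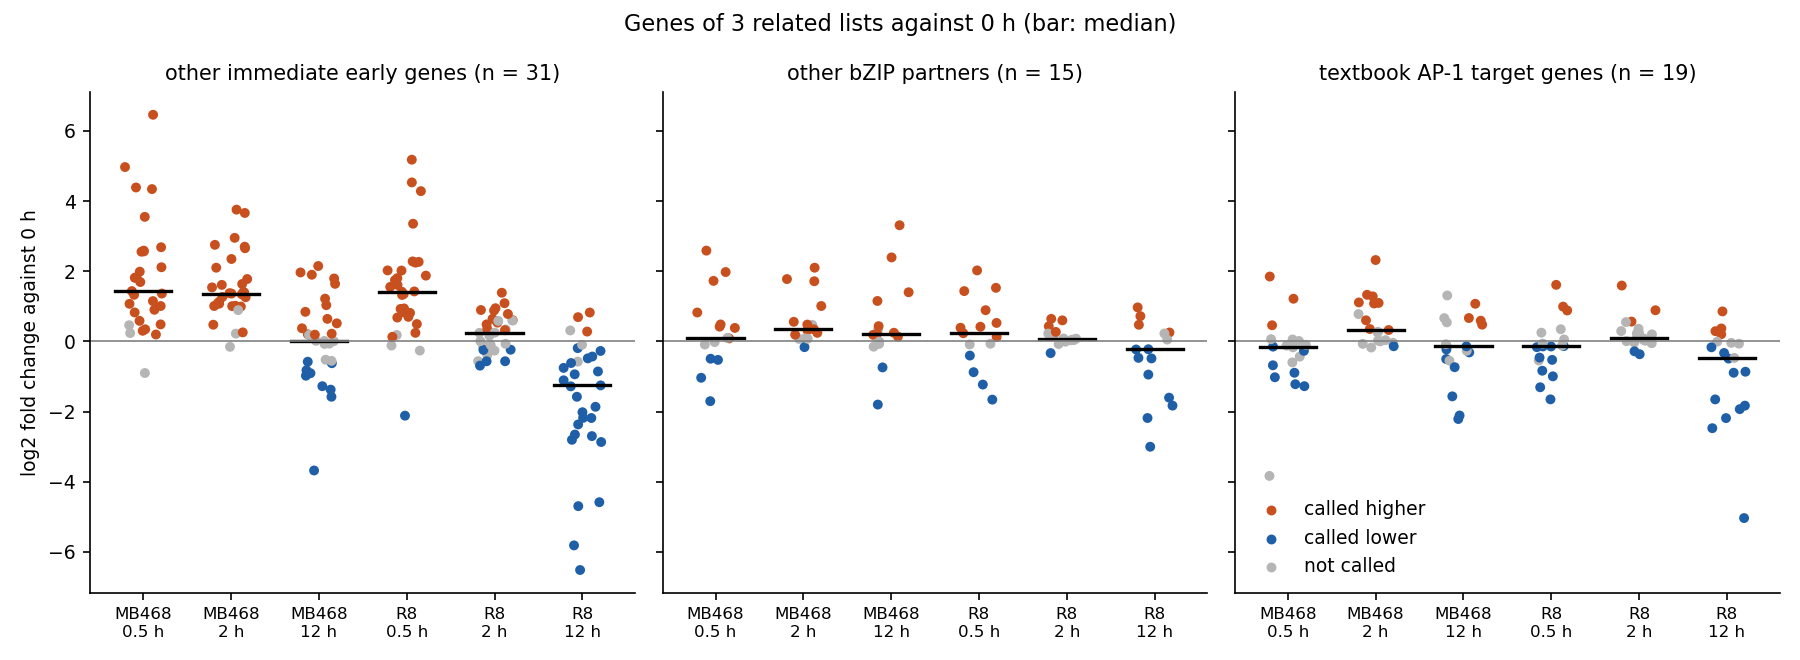
Log2 fold change against 0 h (vertical axis) of the tested genes of 3 lists, by line and hours in Met-Hcy+ (horizontal axis); each point is a gene, coloured by its call, and bars are medians. The median of the 31 other immediate early genes was 1.43 in MB468 and 1.42 in R8 at 0.5 h, and 0.02 and -1.25 at 12 h.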

How the data were processed

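RNA-seq of 24 libraries was analysed, 3 for each of 2 lines at 4 times. The authors selected poly(A) RNA, added ERCC spike-ins, sequenced single-end reads, used HISAT2 2.1.0 for alignment to GRCh38/hg38 plus ERCC, and took gene counts from featureCounts (Subread 1.5.3, per the submitters' processing notes). The deposited counts are raw counts per gene by the authors, with 26645 gene rows and 92 spike-ins. The counter's annotation is not given in the sources used here. The authors' table of normalized values and their table of results, which holds their own fold changes and p-values, were not used.

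Spike-ins were set aside, and edgeR 4.0.16 (R 4.3.3) was used. Of the genes, 14741 passed filterByExpr at a minimum count of 10 and total of 15. Library sizes came from TMM, and a robust quasi-likelihood model with a mean per group gave each contrast, adjusted by Benjamini-Hochberg over all genes tested and called under 0.05. CPM use the TMM effective size, and RPKM the exon union of GENCODE v44. Likeness of genes used log2 CPM with a prior count of 2. Depth ranged from 11745553 to 36496655 counts, which left 35 or more counts for every member in every library. The code was tested on simulated data.

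Alternatives were DESeq2 1.42.0 size factors and its Wald test, library sizes from the spike-ins, the replicate number as a block, a fit to the compared groups alone, each library left out in turn, dropping the filter on low counts, requiring 10 counts everywhere, and a covariate estimated from the spike-ins. Promoters came from RefSeq starts on GRCh38.

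The members, gene lists, and tests were chosen with earlier results of these data known. Named genes are the 7 members, the 3 genes most like each, and from each list up to 2 genes per direction with the largest called change in a comparison described (3 for leucine zipper partners). The values of 1 gene of that last list are not reported here. Levels of a listed gene in other groups are given for context.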

Additional observations from a re-analysis of the deposited data

Results flagged for a closer look

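The responses of the lines to Met-Hcy+ medium differed for 13 results, each by the test of the difference itself (edgeR quasi-likelihood test, R8 response minus MB468 response on the log2 scale). At 0.5 h these were JUN (-0.88) and JUNB (-0.44). At 2 h they were FOS (-2.16), FOSB (-1.02), FOSL1 (-0.70), JUN (-1.10), and JUNB (-1.99). At 12 h they were FOS (-2.69), FOSB (-3.34), FOSL2 (-1.02), JUN (-1.79), JUNB (-0.99), and JUND (-1.71). Every one was lower in R8. FOSB in R8 at 12 h rested on 35 to 38 counts per library. No group had 4 or more libraries, so no library was compared with the rest of its group as an outlier.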

How the results depend on the processing

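Of 105 log2 fold changes of members (7 in 15 comparisons), 91 kept direction and side of the threshold with spike-in library sizes, 105 with DESeq2 size factors and 105 with at least 10 counts in every library, 103 with DESeq2's Wald test, 102 with the spike-in factor, 97 with only the groups compared, and 96 without the low-count filter. Leaving out each library in turn kept 725 results, lost 28 calls, and gained 3. With spike-in library sizes, members called went to 2 (from 5) for the lines at 0 h, 0 (from 2) for the difference at 0.5 h, and 3 (from 5) at 2 h. Calls were also lost for JUN and JUND in MB468 at 2 h and for FOS and JUNB in MB468 at 12 h. JUND in MB468 at 0.5 h and from 2 to 12 h lost its call too, as did JUNB in R8 from 2 to 12 h. With only the groups compared, the difference counts were 1 at 0.5 h and 3 at 2 h, and without the low-count filter R8 at 2 h had 5 members called (from 3). Among called changes, FOSL2 at 0 h (-0.0908) and JUND in MB468 at 2 h (-0.0209) reversed under spike-in scaling. Direction also turned for changes called in neither analysis. These were JUND at 0 h (-0.024), FOSL2 in MB468 at 2 h (-0.17), and JUND in R8 at 0.5 h (0.012). JUND in MB468 turned at 12 h (-0.22) and from 0.5 to 2 h (-0.19). The differences turned for FOS (0.15), FOSB (0.099), FOSL1 (0.23), and FOSL2 (0.20) at 0.5 h, and for FOSL2 (0.068) and JUND (0.098) at 2 h. The causes of changes in call were not tested.

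Without single libraries, members called ranged from 4 to 6 for the lines at 0 h, 6 to 7 in MB468 at 0.5 h, 5 to 6 at 2 h, 2 to 3 in R8 at 2 h, 6 to 7 in R8 from 2 to 12 h, and 3 to 6 for the difference at 2 h. Calls over all genes in R8 at 2 h were 644, and 410 without R8 replicate 3 at 0 h, 348 without R8 replicate 2 at 2 h.

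Spike-in scaling moved calls over all genes from 5000 to 3287 in MB468 at 0.5 h, 2410 to 9511 at 2 h, 4967 to 2023 in R8 at 0.5 h, 644 to 180 at 2 h, 9036 to 5887 at 12 h, 5207 to 2380 from 0.5 to 2 h, and 428 to 101 for the difference at 0.5 h. It moved the share called higher from 49.4% to 14.98% at 0 h, in MB468 from 51.8% to 13.96%, 54.3% to 2.52%, and 51.0% to 30.0% at 0.5, 2, and 12 h, 49.7% to 18.3% from 0.5 to 2 h and 49.6% to 65.4% from 2 to 12 h, in R8 from 49.3% to 35.5% from 0.5 to 2 h, and for the differences from 41.4% to 79.2%, 43.2% to 93.0%, and 46.3% to 69.9%.

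The replicate numbers did not pair the libraries consistently: correlations of same-numbered libraries averaged from -0.231 to 0.277 over the comparisons. The highest average was for R8 at 2 h against 0 h, where libraries of other numbers averaged -0.138. Whether libraries of the same number belong together is not stated. With the replicate number as a block, JUND at 0 h (0.30, adjusted p = 0.0498) and FOSL2 in MB468 at 2 h (0.25, adjusted p = 0.0221) passed the test, and no other call of a member changed.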
